A study of Mus musculus with 4 samples.

Results

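The genes examined here encode 10 transcription factors that place cells along the limb and body axes, Tbx4, Tbx5, Tbx15, Pitx1, Lhx2, Lhx9, Emx2, Irx3, Irx5 and Hand2. Their sites are the ATAC-Seq regions that overlapped the body of one of these genes or came within 50 kb of a transcription start site (TSS) of one of its transcripts, which gave 76 of the 82325 sites in the table. Tbx15 had 13 sites, Tbx4 had 11, Hand2 had 10, Tbx5 had 9, and Lhx2, Lhx9 and Emx2 had 8 each. Pitx1, Irx3 and Irx5 had 3 each. No site was shared between these genes. Of the 76 sites, 36 lay within 3 kb of the TSS of some annotated gene, 25 of them at a TSS of the listed gene itself, while 22 were intergenic, 14 intronic and 4 exonic.

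In ATAC-Seq the Tn5 transposase inserts adapters into open chromatin, so the reads over a site follow its accessibility. The 4 libraries came from immortalized mouse embryonic fibroblasts (MEFs) of strain C57bl6, 2 from HAT1+/+ lines (WT) and 2 from HAT1−/− lines (KO), each named for a different line. HAT1 acetylates newly made histone H4. All lines carried SV40 T antigen from a plasmid and were derived from embryos, and for MEFs in general the study removed the internal organs and dissociated the remaining tissue, so a line can mix cells from several body regions. Neither the region a line came from nor its clonality was stated.

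Limb fibroblasts keep a memory of where they arose. Tbx5 acts in the forelimb field, Tbx4 and its upstream regulator Pitx1 act in the hindlimb field, and Hand2 marks the posterior limb bud, where it promotes Shh expression. Tbx15 patterns the body wall, skin and limb skeleton, Lhx2 and Lhx9 act in distal limb mesenchyme, Emx2 is needed for the shoulder blade and the urogenital tract, and Irx3 and Irx5 act early in limb and skeletal patterning.

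Values are normalized counts, the read counts of a site divided by a factor per library and rounded. Library totals lay between 8008069 and 8516263. From the spacing of low values, 1 normalized count stood for about 1.18 and 1.40 reads in WT replicates 1 and 2, and for about 0.930 and 0.664 reads in KO replicates 1 and 2, so the KO libraries were the shallower pair. The promoter site of Hat1 had 390 and 384 normalized counts in WT against 438 and 368 in KO, which gave no check of the genotype. All 10 fibroblast markers examined had a site at their promoter, with summed values of 2566 to 2824 per library. Single markers were less even, and WT replicate 1 was lowest for Thy1 (35 and 150 in WT, 61 and 69 in KO) and Prrx1 (68 and 134 in WT, 129 and 114 in KO). The sums were 108 to 211 for epithelial (4 of 5 genes with a site), 110 to 194 for endothelial (3 of 4), 79 to 109 for blood (2 of 4) and 103 to 143 for neural markers (3 of 4). The skeletal muscle genes Myod1, Myf5 and Myog had no promoter site in the table. The highest epithelial and endothelial sums were both in WT replicate 1, and the part of these markers in the results was not tested.

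The 300 bases at the centre of 6 sites are printed below, plus strand of mm10, as examples of the differences described below. The Tbx4, Hand2 and Tbx15 sites had the widest range of their gene among sites whose mean reached the table median, and weaker sites with wider ranges are not printed. They lie in an intron of Tbx4 (chr11:85894706-85895005), just beyond the 3′ end of Pitx1 (chr13:55824232-55824531), in an intron of Tbx5 (chr5:119839966-119840265), downstream of Hand2 at the start of the noncoding gene 5033428I22Rik (chr8:57340895-57341194), in an intron of Tbx15 (chr3:99263587-99263886) and downstream of Emx2 (chr19:59469396-59469695). The Pitx1, Tbx5 and Emx2 sites were chosen after their values were seen. Capitals mark matches to the motifs searched.
Tbx4 intron site: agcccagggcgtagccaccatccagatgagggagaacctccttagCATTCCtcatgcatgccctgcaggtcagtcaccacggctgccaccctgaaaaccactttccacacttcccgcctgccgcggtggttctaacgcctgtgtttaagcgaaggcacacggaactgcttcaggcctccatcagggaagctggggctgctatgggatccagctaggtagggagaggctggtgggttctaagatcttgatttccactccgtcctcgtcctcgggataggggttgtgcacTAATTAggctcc
Pitx1 downstream site: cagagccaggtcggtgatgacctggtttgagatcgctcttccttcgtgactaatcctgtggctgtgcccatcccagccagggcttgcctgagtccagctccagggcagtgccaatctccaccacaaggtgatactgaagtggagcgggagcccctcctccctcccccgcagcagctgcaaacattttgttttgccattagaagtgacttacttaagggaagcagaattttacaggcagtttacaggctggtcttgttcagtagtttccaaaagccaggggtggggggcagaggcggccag
Tbx5 intron site: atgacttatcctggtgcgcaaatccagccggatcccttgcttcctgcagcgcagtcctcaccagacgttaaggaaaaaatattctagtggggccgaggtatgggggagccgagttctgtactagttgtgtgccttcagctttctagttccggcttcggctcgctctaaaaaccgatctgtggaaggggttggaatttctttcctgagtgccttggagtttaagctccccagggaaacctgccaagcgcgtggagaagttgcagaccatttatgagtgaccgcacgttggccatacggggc
Hand2 downstream site: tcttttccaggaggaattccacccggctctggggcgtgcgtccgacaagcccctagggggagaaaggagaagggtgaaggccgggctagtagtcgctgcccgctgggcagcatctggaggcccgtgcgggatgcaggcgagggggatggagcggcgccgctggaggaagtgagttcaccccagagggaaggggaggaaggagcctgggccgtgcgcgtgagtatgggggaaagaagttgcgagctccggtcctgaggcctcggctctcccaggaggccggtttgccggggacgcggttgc
Tbx15 intron site: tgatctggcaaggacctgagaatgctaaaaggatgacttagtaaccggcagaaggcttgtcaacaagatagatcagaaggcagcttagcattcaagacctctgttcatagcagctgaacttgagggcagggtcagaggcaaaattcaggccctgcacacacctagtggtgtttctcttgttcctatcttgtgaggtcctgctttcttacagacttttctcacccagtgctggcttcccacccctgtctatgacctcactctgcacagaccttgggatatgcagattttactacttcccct
Emx2 downstream site: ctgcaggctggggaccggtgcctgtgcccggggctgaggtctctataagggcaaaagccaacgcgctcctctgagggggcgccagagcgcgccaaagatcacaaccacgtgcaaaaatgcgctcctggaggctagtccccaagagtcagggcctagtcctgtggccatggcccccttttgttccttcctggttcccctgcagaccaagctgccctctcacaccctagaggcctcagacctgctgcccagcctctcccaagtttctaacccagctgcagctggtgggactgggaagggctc

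In these windows, 4 motifs were searched on both strands, AP-1 (TGANTCA), homeodomain (TAATTA), TEAD (GGAATG) and T-box (AGGTGTGA). The Tbx4 window held 1 homeodomain match and 1 TEAD match, which do not overlap, and the other printed windows held none. Over the central 300 bases of all 82325 sites, the shares with a match were 37.7% for AP-1, 4.66% for homeodomain, 24.7% for TEAD and 1.11% for T-box. Among the 76 sites, AP-1 letters occurred in 17 (22.4%), homeodomain letters in 4 (5.26%), TEAD letters in 7 (9.21%) and T-box letters in 1 (1.32%). The median GC content was 54.2% over the windows of the 76 sites and 48.3% over all windows.

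To ask whether the loss of HAT1 altered accessibility around these genes, KO was compared with WT by limma over all sites. A call was set at a limma p under 0.01, unadjusted, together with a change of 1 or more on the log2 scale in either direction. None of the 76 sites was called, where 0.373% of all sites were. With so low a share over the table, the lack of a call says nothing particular to these genes. At an unadjusted limma p under 0.05, 4 of the 76 sites (5.26%) passed, against 3.13% of all sites, and all 4 were higher in KO, as 1.54% of all sites were. They comprised a site of Tbx5, a site of Lhx9 and neighbouring sites downstream of Emx2, whose chromosome was itself raised in KO replicate 1, as described below. The 4 are therefore not independent. limma without its intensity trend gave 1 site past the stricter threshold, inside Lhx9, and the share of all sites under that setting is not given here. The limma adjusted p was 1 at all 76 sites, and it was under 0.05 at 0 of the 82325 sites in the table. Fold changes ran from -1.80 to 1.80 (log2) with a median of -0.06, against 0.0062 over all sites, and 41 of the 76 (53.9%) were below 0, against 49.3% of all sites. In bulk libraries, a smaller share of cells with an open site and a less open site in every cell cannot be told apart.

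The genotypes overlapped at 51 of the 76 sites. Both KO libraries were above both WT libraries at 10 sites (13.2%, against 14.6% of all sites) and below them at 15 (19.7%, against 14.3%). Differences inside a genotype were common. The WT lines differed by at least 1 on the log2 scale at 18 sites (23.7%), against 13.5% of all sites, and the KO lines at 22 sites (28.9%), against 20.8%.

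**Figure D1:**
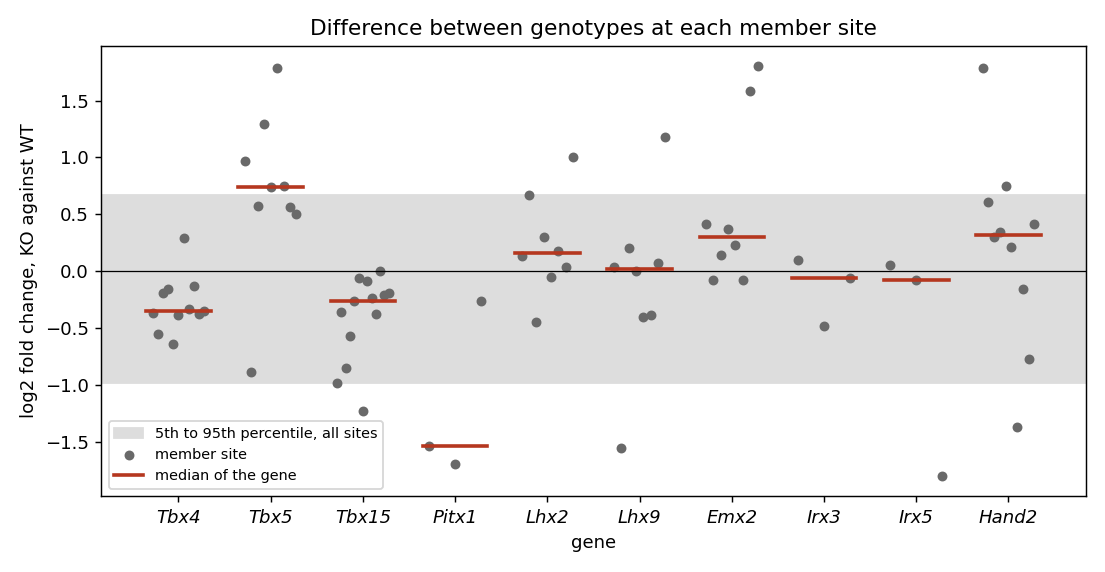
Log2 fold change of KO against WT at each of the 76 sites, by gene; points are sites, red bars are the median of a gene and the grey band spans the 5th to 95th percentile of all sites (-0.98 to 0.67). Tbx5 sites lie mostly above 0 and Pitx1, Tbx4 and Tbx15 sites mostly below it, and none passed the p and fold thresholds.

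The spread between lines was wide at these genes. The highest and lowest of the 4 libraries differed by at least 2 on the log2 scale, that is 4-fold, at 19 of the 76 sites (25%), against 10.0% of all sites. Low values widen such a range. Adding 8 instead of 1 to each value before taking the logarithm lowered the count from 19 to 13 of 76, and the share of all sites under that setting is not given here. Among sites whose mean reached 52 normalized counts, the table median, the count was 7 of 39 (17.9%), against 3.35%. Without KO replicate 1 it was 9 of 76 (11.8%, against 4.94%), and without WT replicate 1 it was 12 (15.8%, against 8.35%). The count also stood above its background without WT replicate 2, at 17 (22.4%, against 7.25%), and without KO replicate 2, at 16 (21.1%, against 6.48%). These are descriptions, since sites of 1 gene share a locus and each line is a single library.

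The library that stood highest also differed from the rest of the table. At the 19 wide sites, KO replicate 1 was highest at 9 (47.4%, against 18.1% of all sites with so wide a range) and WT replicate 1 at 7 (36.8%, against 19.0%). These 9 were all sites of Hand2, Tbx5 or Emx2, and sites of 1 gene are not independent. On the chromosome of Emx2 the median site was itself raised in KO replicate 1, by 0.35 (log2). The shares are therefore a description only. KO replicate 2 was highest at 2 (10.5%, against 31.2%) and WT replicate 2 at 1 (5.26%, against 31.8%). KO replicate 1 was lowest at 4 (21.1%), while it was lowest at 51.5% of all such sites. WT replicate 2 and KO replicate 2 were each lowest at 6 (31.6%, against 15.8% and 22.0%), and WT replicate 1 at 3 (15.8%, against 10.8%). Hand2 alone contributed 6 of the 19 wide sites, Tbx15 contributed 3, and Tbx4, Tbx5, Pitx1 and Emx2 contributed 2 each. Lhx9 and Irx5 contributed 1 each, and Lhx2 and Irx3 had none.

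**Figure D2:**
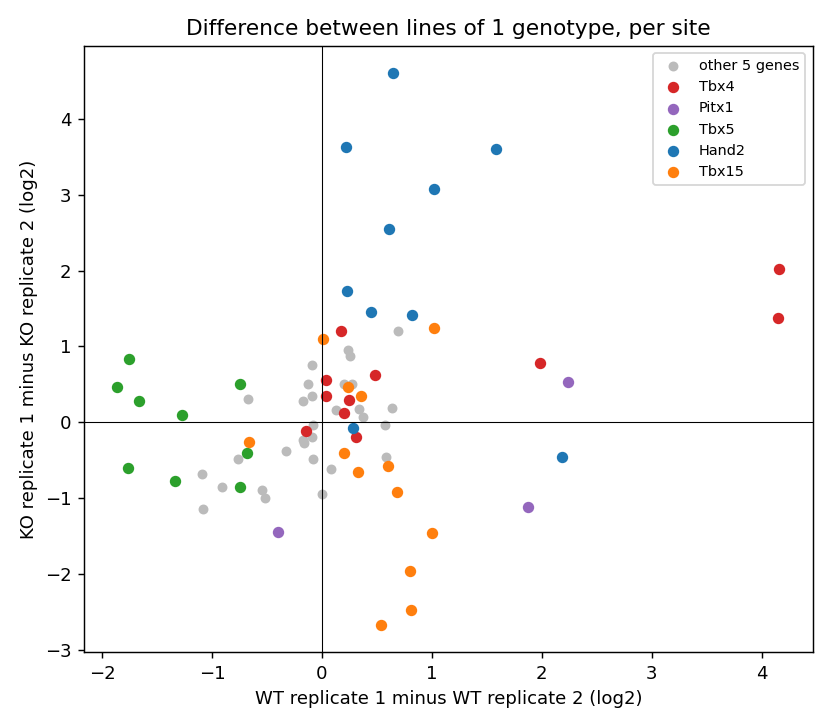
Difference between the WT lines (horizontal, log2) and between the KO lines (vertical, log2) at each of the 76 sites. Tbx5 sites lie to the left, from higher values in WT replicate 2 at all 9 sites, Tbx4 has sites far to the right, most Hand2 sites lie high, and 9 of 13 Tbx15 sites lie below 0 on the vertical axis.

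The 3 sites inside Tbx4 and 2 of the 3 Pitx1 sites were most open in WT replicate 1. Tbx4 lies on chromosome 11 (85886422 to 85916097, mm10, plus strand), and the 3 of its sites that fell inside the gene had the widest differences between lines. Their summed values were 270 and 24 in WT replicates 1 and 2 and 127 and 43 in KO replicates 1 and 2. The ranking thus ran across the genotypes, with replicate 1 of each genotype above replicate 2 of both. The 8 sites outside the gene had sums of 1010 and 941 in WT and 938 and 697 in KO, a range of 0.53 against 3.44 (log2) for the sites inside it. Over a wider set, the 25 sites centred on the TSS of Tbx4, WT replicate 1 exceeded WT replicate 2 by a mean of 0.81 (log2). The WT lines thus differed at sites around the gene as well.

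The widest Tbx4 site was intronic, 1.7 kb from an internal TSS (chromosome 11, 85894645 to 85895066), and its central sequence is the Tbx4 window printed above. It had 124 and 6 normalized counts in WT and 72 and 17 in KO, a 20.7-fold span in which neither genotype kept to one end. Its log2 fold change was 0.29 (SE 1.36). A site 1.42 kb from another Tbx4 TSS (85888326 to 85888645), described after its values were seen, had 88 and 4 in WT and 25 and 9 in KO, the same order of lines. Its log2 fold change was -0.39 (SE 1.34). The next site along (85896339 to 85896588) had 58 and 14 in WT and 30 and 17 in KO, so all 3 sites ranked the lines alike. The sum over all 11 Tbx4 sites was 1122.5 ± 223 for WT and 902.5 ± 230 for KO (mean ± SD, n = 2 each), a log2 fold change of -0.32 (SE 0.22, limma adjusted p = 0.901).

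Pitx1, on chromosome 13 (55825051 to 55836192, minus strand), had few and weak sites. The site just beyond its 3′ end (55824189 to 55824573) had 136 and 28 normalized counts in WT and 25 and 17 in KO. Its nearest TSS, at 1.68 kb, was that of another annotated gene, Gm47071. WT replicate 1 stood alone, and WT replicate 2 was close to the KO lines. A second site over the last exon (55825213 to 55825412), 0.838 kb from a Gm47071 TSS, had 54 and 14 in WT and 5 and 12 in KO, again with WT replicate 1 apart. The log2 fold changes of these sites, -1.54 (SE 0.74) and -1.70 (SE 0.84), did not pass either threshold. At the promoter site, 0.718 kb from the TSS (55836910 to 55837187), the order was lost, with 18 and 24 in WT and 10 and 29 in KO. Summed, Pitx1 had 208 and 66 in WT and 40 and 58 in KO, with the highest value 5.20-fold above the lowest. Without WT replicate 1 the log2 fold change of this sum went from -1.27 (SE 0.59, limma adjusted p = 0.901) to -0.45, and without WT replicate 2 to -2.09.

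Tbx5, the forelimb gene (chromosome 5, 119832668 to 119885219, plus strand), showed the reverse order in WT. WT replicate 1 had the lowest value at 8 of its 9 sites, and WT replicate 2 exceeded it at all 9, by a median of 1.34 on the log2 scale. The sums were 124 and 315 in WT and 343 and 361 in KO, so WT replicate 2 was close to both KO lines and WT replicate 1 was 2.91-fold below the highest. The KO lines were alike, with no site at which they differed by 1 or more on the log2 scale.

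The intronic Tbx5 site printed above (119840011 to 119840220) had 7 and 28 normalized counts in WT and 61 and 44 in KO. Both KO lines were above both WT lines there, with a log2 fold change of 1.79 (SE 0.67, limma adjusted p = 1). The site 0.031 kb from the first TSS (119832438 to 119832637) had 10 and 36 in WT and 65 and 36 in KO, so the genotypes met at 36. The strongest promoter site (119835072 to 119835271) had 21 and 52 in WT and 58 and 54 in KO, with a log2 fold change of 0.74 (SE 0.49). Here too WT replicate 1 was the line that differed. Over the summed values the difference between genotypes was 0.83 (SE 0.42, limma adjusted p = 0.901), and it was 0.16 without WT replicate 1 and 1.5 without WT replicate 2.

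**Figure D3:**
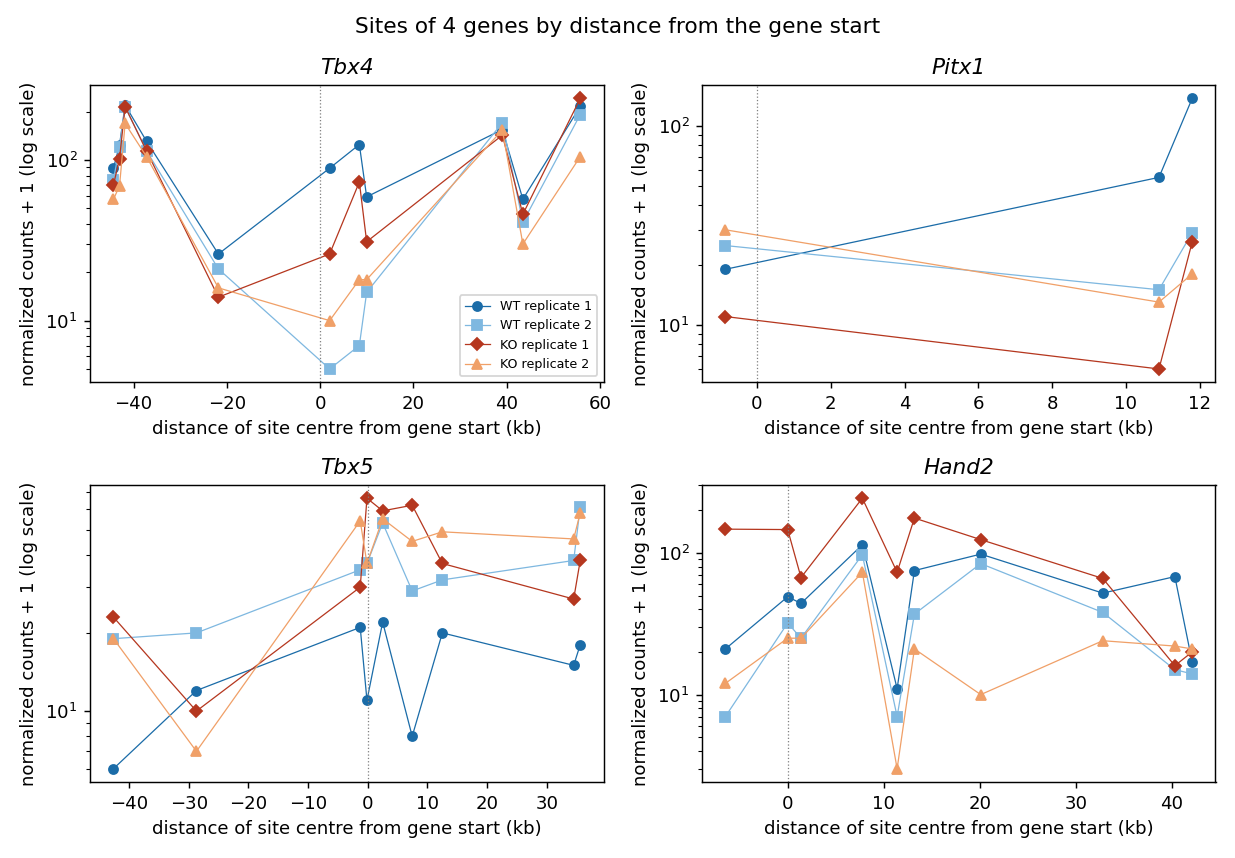
Normalized counts + 1 (log axis) of the sites of Tbx4, Pitx1, Tbx5 and Hand2 in each library against the distance of the site centre from the gene start in the direction of transcription; lines only join the sites of a library. WT replicate 1 is highest at the 3 sites inside Tbx4 and at 2 of 3 Pitx1 sites and lowest at 8 of 9 Tbx5 sites, and KO replicate 1 is highest at 8 of 10 Hand2 sites.

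At Hand2 the KO lines stood at opposite ends. The gene lies on chromosome 8 (57320983 to 57324633, plus strand) beside the divergent noncoding gene Hand2os1, and KO replicate 1 was highest at 8 of its 10 sites. The sums were 539 and 346 in WT and 1068 and 226 in KO, with both WT lines between the KO lines. Only 0.456% of the 8336 loci with a summed value within 2-fold of that of Hand2 had so wide a range.

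The promoter site of Hand2 (57320782 to 57321209) had 48 and 31 normalized counts in WT and 145 and 24 in KO. A site centred at -6.47 kb from the TSS (57314273 to 57314761) had 20 and 6 in WT and 146 and 11 in KO, and a site 11.4 kb downstream (57332267 to 57332466) had 10 and 6 in WT and 72 and 2 in KO. At all 3, KO replicate 1 was open and KO replicate 2 was below the higher WT line. The printed Hand2 site (57340776 to 57341313) had 97 and 83 in WT and 123 and 9 in KO, so there KO replicate 2 was the line apart. Its log2 fold change was -1.37 (SE 1.07), and 0.45 without KO replicate 2. The summed difference was 0.19 (SE 0.68, limma adjusted p = 0.974) and turned to -0.93 without KO replicate 1. The KO lines differed by at least 1 on the log2 scale at 8 of the 10 sites and the WT lines at 3.

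Tbx15, on chromosome 3 (99240381 to 99354259, plus strand), was open in all 4 lines, with sums of 1533 and 1127 in WT and 918 and 1247 in KO. Its strongest site, over an internal TSS (99253006 to 99254205), had 410 and 326 normalized counts in WT and 280 and 442 in KO. The log2 fold change was -0.06 (SE 0.25), and the genotypes overlapped. The intronic site printed above (99263443 to 99264030) lies 2.16 kb from a TSS of another annotated gene, Gm43120. The values there were 205 and 141 in WT and 28 and 183 in KO, so that 1 KO line stood apart and the other lay among the WT lines. The log2 fold change there was -1.23 (SE 0.81), and it was 0.11 without KO replicate 1. KO replicate 1 was lowest at 9 of the 13 sites.

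Summed over their sites, Lhx9, Irx3 and Irx5 differed least between the lines. Lhx9 (chromosome 1, 138825186 to 138848577, minus strand) had sums of 720 and 706 in WT and 642 and 745 in KO, and its promoter site (138848073 to 138849075) had 302 and 234 in WT and 207 and 197 in KO. Both KO lines were below both WT lines there, with a log2 fold change of -0.39 (SE 0.20). A site centred at -28.1 kb from the TSS, over the start of the noncoding gene 1700019P21Rik (138876282 to 138877005), had 30 and 65 in WT and 80 and 129 in KO. Its log2 fold change was 1.18 (SE 0.47, limma adjusted p = 1), with KO above WT in both lines. The site that passed when limma was run without its trend (138833445 to 138833724) had 16 and 17 in WT and 4 and 6 in KO, with a log2 fold change of -1.56 (SE 0.83 with the trend).

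Lhx2 (chromosome 2, 38339281 to 38369733, plus strand) had sums of 530 and 743 in WT and 564 and 909 in KO, so replicate 2 exceeded replicate 1 in both genotypes. Its strongest promoter site (38350366 to 38351383) had 190 and 272 in WT and 198 and 397 in KO. The site beside it (38351979 to 38352222) had 34 and 73 in WT and 32 and 72 in KO, nearly the same pair of values in each genotype. Replicate numbers are names only, so this is no pairing.

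Irx3 and Irx5 lie on the same chromosome, 8 (91798525 to 91802067, minus strand, and 92357625 to 92376286, plus strand), and their promoters were open in every line. The Irx3 promoter site (91800784 to 91802247) had 466 and 587 in WT and 440 and 571 in KO. The strongest site within 3 kb of an Irx5 TSS (92355721 to 92356578) was centred at -1.48 kb from it and covers the start of the noncoding gene Crnde instead. It had 517 and 548 in WT and 547 and 558 in KO, the narrowest range of the 76 sites at 0.11 (log2). The site over the Irx5 start itself (92357249 to 92358257) had 417 and 455 in WT and 492 and 347 in KO. A weaker site beside Irx3 (91797568 to 91797852) had 76 and 51 in WT and 44 and 45 in KO, with a log2 fold change of -0.48 (SE 0.36). A weak site 48.2 kb downstream of the Irx5 TSS (92405740 to 92406105) had 16 and 31 in WT and 4 and 8 in KO. This lowest log2 fold change of the 76, -1.80 (SE 0.78), did not pass either threshold.

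Emx2 was the gene at which a whole chromosome moved with the values. It lies on chromosome 19 (59458372 to 59465357, plus strand), where the median site in KO replicate 1 deviated by 0.35 (log2) from the mean of the 4 libraries, against -0.08, -0.13 and -0.14 in WT replicate 1, WT replicate 2 and KO replicate 2. On the other 7 chromosomes of these genes no library median was more than 0.05 from that mean. The sums of Emx2 were 801 and 789 in WT and 1207 and 783 in KO, with KO replicate 1 highest at all 8 sites. The promoter site (59457390 to 59458807) had 328 and 348 in WT and 514 and 305 in KO. After the chromosome median of each library was subtracted, a step chosen after the data were seen, its log2 fold change went from 0.23 to 0.01 and that of the sum from 0.29 to 0.08.

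Downstream of Emx2, 2 weaker sites kept a difference. The printed site (59469398 to 59469693) had 12 and 10 normalized counts in WT and 57 and 29 in KO, a log2 fold change of 1.80 (SE 0.54), or 1.59 after centring by chromosome. Its neighbour (59467556 to 59468091) had 28 and 17 in WT and 103 and 44 in KO, a log2 fold change of 1.58 (SE 0.53), or 1.37 after centring. Both KO lines were above both WT lines at these sites, and the limma adjusted p was 1 for both.

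**Figure D4:**
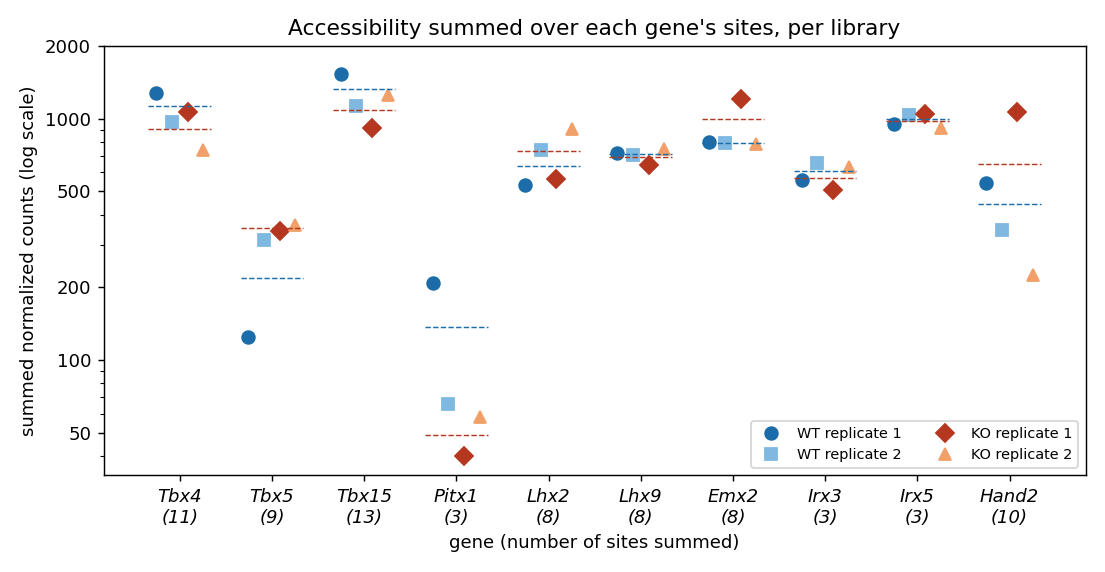
Normalized counts summed over the sites of each gene (log axis) in the 4 libraries, with the number of sites in parentheses and dashed lines at the WT (blue) and KO (red) means. The lines of 1 genotype lie far apart at Tbx5 and Pitx1 (WT) and at Hand2 (KO), and close together at Lhx9 and Irx5; levels of different genes are not comparable, since the number and length of their sites differ.

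When the sites of each gene were summed and the same rule was applied to 18861 protein-coding genes, none of the 10 genes was called, where 0.308% of all genes were. None had a limma p under 0.05, where 4.18% did, and limma without the trend also called none. At such shares, the lack of a call among 10 genes says nothing particular to them. The limma adjusted p was under 0.05 at 0 of the 18861 genes. Ranges of the sums over the 4 libraries had a median of 0.76 (log2) for the 10 genes, against 0.31 for all genes. The median was 0.7 for 26 other regulators of the limb and body plan, so a wide range of the sum was not particular to the 10. Of the 26, Lhx8, Irx4, Isl1, Sall4 and Shh had 1 site each, and weak loci range widely. By site, a range of at least 2 was less common for the 26 genes (11.3%) than for the 10 (25%). Among the 10 genes, ranges of the sums were widest for Pitx1 (2.35), Hand2 (2.24) and Tbx5 (1.53), followed by Tbx4 (0.79), Lhx2 (0.78), Tbx15 (0.74) and Emx2 (0.62). Irx3 (0.36), Lhx9 (0.21) and Irx5 (0.19) were narrow. Weak loci range widely in general: of the loci with a summed value within 2-fold, 9.89% had a range as wide as that of Pitx1 and 3.66% one as wide as that of Tbx5, against 0.456% for Hand2. The share was 2.43% for Tbx4, 2.56% for Tbx15, 4.65% for Lhx2 and 6.96% for Emx2. It was 38.8% for Irx3, 69.6% for Lhx9 and 72.8% for Irx5. Among loci of like signal, the ranges of Tbx4 and Tbx15 were thus rarer than those of Tbx5 and Pitx1. In the 2 Mb on either side, the median site moved by at most 0.25 between libraries except around Emx2, where the range was 0.49.

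The 25 sites centred on each TSS had a mean log2 fold change between -0.43 (Pitx1) and 0.43 (Tbx5). Around Hand2 the mean was 0.78 in KO replicate 1 and -0.20 in KO replicate 2, each against the WT mean, so the lines of 1 genotype pointed in opposite directions. Opposite signs also occurred around Lhx9 (-0.3 and 0.43), Tbx15 (-0.44 and 0.09) and Irx5 (-0.05 and 0.03), so this was not particular to Hand2. The 25 sites include sites of the gene itself and are no separate view of its surroundings.

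Other regulators of the limb and body plan gave a background. The 26 genes reported (Tbx2, Tbx3, Tbx18, Lhx8, Lmx1b, Emx1, Irx1, Irx2, Irx4, Irx6, Hand1, Isl1, Meis1, Meis2, Shox2, Gli3, En1, Msx1, Msx2, Alx4, Sall1, Sall4, Fgf8, Fgf10, Shh and Grem1) had 159 sites by the same rule. They are not the whole list drawn up, so their counts describe these genes only. Of the 159 sites, 5 were also among the 76, since they lie between Tbx2 and Tbx4, and none of the 5 had a range of at least 2. A range of at least 2 on the log2 scale occurred at 18 of the 159 sites (11.3%), against 25% of the 76 sites and 10.0% of all sites. A limma p under 0.05 occurred at 5 (3.14%), with 2 higher and 3 lower in KO, and the adjusted p was 1 at each. The site with the lowest fold change of these 5, chosen after its values were seen, was at a promoter of Lmx1b, a LIM homeobox gene of the dorsal limb (chromosome 2, 33631553 to 33631870). It had 84 and 40 normalized counts in WT and 16 and 18 in KO, with a log2 fold change of -1.72 (SE 0.48, limma adjusted p = 1). Both KO lines were below both WT lines, and WT replicate 1 was the highest.

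Profiles over the 4 libraries were compared by Euclidean distance of the log2 sums, each centred on its mean. Among the 26 genes, the nearest to Pitx1 was Irx4, at 0.99 (median of the list 1.83), with 24 and 18 in WT and 10 and 12 in KO at its single site. The nearest to Hand2 was the T-box gene Tbx3, at 1.18 (median 1.78), with 920 and 987 in WT and 1566 and 925 in KO. The nearest to Tbx5 was Irx6, at 0.96 (median 1.41), with 291 and 426 in WT and 364 and 365 in KO. With 4 libraries such likeness is a description only.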

How the data were processed

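ATAC-Seq libraries of 4 immortalized MEF lines, 2 WT and 2 KO, were compared. Per the study methods and labels, the authors sequenced read pairs, aligned them with BWA 0.7.12 (mm10), called peaks in MACS2 2.1.0 and compared genotypes in DESeq2. Read filters, the Tn5 offset and whether peaks were called on pooled samples are not given in the sources used here. The deposited values are a score, read counts per merged site divided by a factor per library and rounded to whole numbers, so no count model was run. The fold changes and p-values of the authors' own comparison in the same table were not used. Replicates were numbered in accession order. The names of the lines of WT replicate 1 and KO replicate 2 share a number, and no source says whether it marks a litter.

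Here limma 3.58.1 with an intensity trend (R 4.3.3) was fitted on log2(value + 1) over all 82325 sites, and over sites summed per gene for 18861 protein-coding genes, KO against WT, with Benjamini-Hochberg adjustment. Fold changes on this scale understate changes of low sites. The p-values test KO against WT, given a spread between these lines that limma draws toward its trend over all sites. SEs use the same moderated spread. At sites where lines of 1 genotype differ unusually widely, they are smaller than the values of that site alone would give. Genes came from GENCODE M21 (GRCm38, the assembly named mm10) and sequences from the RefSeq GRCm38.p6 assembly. The fits were tested on simulated data. With 200 sites changed by 2 (log2), the site fit called all 200 and also 386 unchanged sites. The simulated spread was the same for sites of like signal, and the changed sites all had means at or above the table median. This recovery therefore does not carry over to weaker sites or to sites whose lines differ widely. In the real data it called 307 of the 82325 sites. Depth was estimated from gaps in the low values and is approximate, with the poorest match for KO replicate 1.

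The members and lists were chosen with earlier results of these data known. Some genes of the list of related regulators are not reported here, and its counts were computed without them after the values were seen. Sites named were, per gene, its strongest promoter site, its widest-ranging site among those whose mean reached the table median, and any called site. Other sites described were chosen after their values were seen. Alternatives were another pseudocount (8), scalings, filters, windows of 25 and 100 kb, a fit without the trend, and leaving out each library. Python 3.11.15, numpy 2.4.6, pandas 2.3.3 and matplotlib 3.10.9 were used.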

Additional observations from a re-analysis of the deposited data

How the results depend on the processing

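None of the 76 sites was called under equal totals, a pseudocount of 8 or centring by chromosome. None of the 119 sites within 100 kb was called either. The 55 sites within 25 kb are part of the 76 and keep the same fit, so that window could not add a call. 1 site was called by limma without the trend (Lhx9) and 1 under quantile normalization (Emx2, 2.05). The shares of all sites called under these settings are not given here, so the single calls have no background. At a limma p under 0.05 with no fold filter, 4 sites passed (5.26%, against 3.13% of all sites). Leaving out a library leaves 1 library in a genotype, so these fits are given by effect size only. The printed Hand2 site had a log2 fold change of -3.18 without KO replicate 1. The printed Tbx15 site had -2.56 without KO replicate 2. The summed difference was 1.3 for Hand2 without KO replicate 2 and 1.5 for Tbx5 without WT replicate 2. The median log2 fold change (-0.058) was 0.044 within 100 kb, over 119 sites, and -0.128 to 0.04 without each library. Wide sites numbered 13 with a pseudocount of 8, 7 among sites at or above the table median and 9 to 17 without each library. Of 288 values over 36 named results, 251 kept direction and side of the threshold, 5 passed it and 32 reversed. Other scalings reversed the Lhx2 site beside the promoter (0.0, quantile) and the Irx5 site over the Crnde start (-0.01, equal totals, and -0.11, quantile). Without each library, the values that reversed ranged as follows. Tbx4 sites ran from -2.46 to 1.69 and from -1.79 to 2.37. Tbx15 sites ran from -0.38 to 0.27 and from -2.56 to 0.11, and the Pitx1 promoter from -0.99 to 0.46. Lhx2 sites ran from -0.2 to 0.8 and from -0.62 to 0.52, and the Emx2 promoter from -0.15 to 0.6. The Irx3 promoter ran from -0.25 to 0.13 and the second Irx5 site from -0.33 to 0.18. Hand2 sites ran from -0.01 to 3.6, -0.66 to 1.88, -1.55 to 3.06 and -3.18 to 0.45. Sums ran from -0.15 to 0.53 (Lhx2), -0.15 to 0.06 (Lhx9), -0.02 to 0.6 (Emx2), -0.25 to 0.06 (Irx3), -0.12 to 0.07 (Irx5) and -0.93 to 1.3 (Hand2). The cause was not tested. A genotype left with 1 library is assumed to vary like the other. No paired analysis was possible because the labels give no replicate numbers, and only 1 WT and 1 KO line share a number in their names. DESeq2 and edgeR were not run, since the values are not raw counts. Depth limits sites of a few reads, most of all in KO replicate 2.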

Other observations

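Among the 26 other regulators reported of the limb and body plan, the widest range over the 4 libraries was at Sall1, a zinc finger gene of limb and kidney development, which was singled out after its values were seen. Its 3 sites summed to 404 and 29 normalized counts in WT and 323 and 45 in KO, a range of 3.75 (log2). Replicate 1 of each genotype was above replicate 2 of both, the order also seen at the 3 sites inside Tbx4. The Sall1 promoter site (chromosome 8, 89043080 to 89044315) had 310 and 24 in WT and 249 and 38 in KO, with a log2 fold change of 0.16 (SE 1.30). The next widest range, 2.78, was at Isl1, a LIM homeobox gene of the hindlimb field, whose single site (chromosome 13, 116309452 to 116310154) had 66 and 95 in WT and 13 and 84 in KO, so that KO replicate 1 stood apart. The 2 Mb on either side of Isl1 also moved. The median site there deviated from the mean of the 4 libraries by -0.36 (log2) in KO replicate 1 and by 0.33 in KO replicate 2.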
